A study of Mus musculus with 6 samples.

Results

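Azurophil granules, also called primary granules, are the first granules that a developing neutrophil or monocyte makes, at the promyelocyte stage. Many of their genes, but not all, are switched off again as the cell matures. Their cargo includes myeloperoxidase, which makes hypochlorous acid from hydrogen peroxide, and a family of serine proteases that are made as inactive precursors and are activated by cathepsin C before storage. The cargo is held on serglycin, a proteoglycan core protein whose chondroitin sulfate chains bind the basic granule proteins. The genes described here were fixed by name, with no measured value in the rule: Mpo, Elane, Prtn3, Ctsg, Ms4a3 and Srgn, which are 6 of the 34745 genes in the table. Mpo encodes myeloperoxidase, Elane neutrophil elastase, Prtn3 proteinase 3, Ctsg cathepsin G and Srgn serglycin. Ms4a3 encodes a membrane protein that marks granulocyte-monocyte progenitors and is not granule cargo. All 6 passed the filter on low counts that left 12537 genes for testing.

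The samples were monocytic myeloid-derived suppressor cells (M-MDSCs), immature CD11b+ Ly6G- Ly6C-high cells that restrain T cells, from bone marrow of C57BL/6 mice. The mTOR-/- group came from Lyz-mTOR mice, in which Cre driven by the lysozyme gene deletes a floxed Mtor in myeloid cells, and the other group from wild-type (WT) mice, with 3 libraries in each. No Cre or floxed allele is named for the WT mice, so effects of carrying Cre in the lysozyme gene cannot be told apart from those of losing mTOR. The sources call the cells both freshly sorted and induced in culture and give no age, sex or batch. The methods speak of 3 mice but the labels do not tie libraries to mice, so p-values measure the spread between these libraries, which may be technical. Total counts were 12317507 to 12903191 in the mTOR-/- libraries and 14066578 to 14768126 in the WT libraries. At that depth 3 counts are 0.203 to 0.244 CPM (counts scaled to a common library size), a limit that covers counting error only. Mtor, the targeted gene, was at 72.0, 75.9 and 69.5 CPM in mTOR-/- replicates 1 to 3 and 69.7, 59.8 and 66.2 CPM in WT replicates 1 to 3, and did not pass the test (log2 fold change 0.15, SE 0.11, adjusted p = 0.442, edgeR). A count over all exons does not show whether the floxed ones were lost, so in these counts the genotypes rest on the labels. The study states that it verified the loss of mTOR in MDSCs, with data not examined here. Here and throughout, edgeR stands for its quasi-likelihood test, with p adjusted over all tested genes by the Benjamini-Hochberg method, SE for the standard error of the log2 fold change, and fold changes are mTOR-/- over WT. Along the first principal component of the tested genes, mTOR-/- replicate 3 had a score of 59.7, far from the scores of its group's other libraries (11.1 and 16.7), while the WT scores ran from -32.0 to -23.8. Values without that replicate are therefore given below. The integrin gene Itgam (CD11b) was present at 832 ± 191 CPM (SD, n = 3) in the mTOR-/- group and 927 ± 49.9 CPM (SD, n = 3) in the WT group. Ly6g was low, at 2.77 ± 2.13 CPM in the WT group (SD, n = 3), but higher in the mTOR-/- group at 13.3 ± 2.31 CPM (SD, n = 3, adjusted p = 0.0365, edgeR), though that call was lost in 5 of 6 fits that left out a library. Ly6c2 was at 87.3 ± 16.0 CPM in the mTOR-/- group and 174 ± 55.5 CPM in the WT group (SD, n = 3 each, adjusted p = 0.0426, edgeR).

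The promoters of the genes on which the comparison turns are shown first, because Ctsg and Srgn were lower in mTOR-/- M-MDSCs while Elane and Prtn3, from the same protease family as Ctsg, did not pass the test. Each line is the 250 bases before the RefSeq transcription start on GRCm38.p6, 5′ to 3′ on the strand of the gene. Capitals mark matches, on either strand, to 6 motifs of myeloid promoters, and no match overlapped another. The TATA box was searched as TATAAA and the PU.1 site, of the ETS family, as GAGGAA. The C/EBP site was searched as TTGCNNAA and the RUNX site as TGTGGT. The MYB site was searched as TAACNG and the GATA site as AGATAA. Whether any match bears on the levels of these genes was not tested.
Ctsg, chr14:56102575-56102824, reverse strand: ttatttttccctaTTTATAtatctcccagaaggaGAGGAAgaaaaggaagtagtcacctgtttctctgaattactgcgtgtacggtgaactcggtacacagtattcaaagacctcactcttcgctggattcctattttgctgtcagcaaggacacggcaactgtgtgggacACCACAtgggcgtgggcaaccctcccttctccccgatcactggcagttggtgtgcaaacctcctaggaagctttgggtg
Elane, chr10:79886062-79886311, forward strand: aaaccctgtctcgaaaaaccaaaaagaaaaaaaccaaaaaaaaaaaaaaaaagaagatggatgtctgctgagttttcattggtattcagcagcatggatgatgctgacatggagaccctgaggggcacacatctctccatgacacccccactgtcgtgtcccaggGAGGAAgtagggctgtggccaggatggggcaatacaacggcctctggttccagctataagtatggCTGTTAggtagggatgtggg
Prtn3, chr10:79879417-79879666, forward strand: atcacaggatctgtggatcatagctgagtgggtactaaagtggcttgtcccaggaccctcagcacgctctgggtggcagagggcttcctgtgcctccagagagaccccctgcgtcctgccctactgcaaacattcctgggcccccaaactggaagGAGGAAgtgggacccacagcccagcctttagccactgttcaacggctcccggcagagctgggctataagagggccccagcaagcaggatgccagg
Srgn, upstream start, chr10:62527446-62527695, reverse strand: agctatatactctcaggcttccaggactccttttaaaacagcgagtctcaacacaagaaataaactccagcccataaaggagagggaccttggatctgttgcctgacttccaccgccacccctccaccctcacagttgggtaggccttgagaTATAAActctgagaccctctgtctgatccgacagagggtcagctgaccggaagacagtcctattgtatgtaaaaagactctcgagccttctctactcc
Srgn, downstream start, chr10:62507758-62508007, reverse strand: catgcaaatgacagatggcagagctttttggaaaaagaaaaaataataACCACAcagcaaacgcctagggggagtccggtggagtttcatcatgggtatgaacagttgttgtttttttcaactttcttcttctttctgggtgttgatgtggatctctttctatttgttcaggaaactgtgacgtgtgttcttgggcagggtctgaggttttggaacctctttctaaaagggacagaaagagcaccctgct
GAGGAA was found before the starts of Ctsg, Elane, Prtn3 and Mpo, 4 of the 6 genes, and in 23.3% of 32851 mouse promoter windows of the same length. In Elane and Prtn3 it lay 85 to 80 and 95 to 90 bases before the start, and in Ctsg 216 to 211 bases before it. TGTGGT, held by 14.0% of all windows, was found as its reverse complement in the Ctsg window and in that of the downstream Srgn start. TAACNG, in 19.8% of windows, was found in Elane and Mpo. TATAAA, in 12.4% of windows, was found in Ctsg, on the opposite strand and 237 to 232 bases before the start, and at the upstream Srgn start. The related letters tataag stand in lower case near the ends of the Elane and Prtn3 lines and were not searched. The matches to TATAAA therefore do not show which of these genes has a TATA box. TTGCNNAA (9.56% of windows) and AGATAA (9.99%) were found in none of the 7 windows of these genes, which says only that these letters are not there. The Ms4a3 window held none of the 6 motifs.

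Ctsg, the cathepsin G gene, was the only one of the 6 that was a differentially expressed gene (DEG) by the study's thresholds, which ask for a fold change of at least 2 beside an adjusted p under 0.05. That is 1 of 6, where 1.69% of all tested genes were DEGs with 0.654% lower and 1.04% higher in mTOR-/- M-MDSCs. Ctsg (ENSMUSG00000040314, chromosome 14, 56099881 to 56102574, reverse strand) had 206, 401 and 441 counts in mTOR-/- replicates 1 to 3. In WT replicates 1 to 3 it had 1113, 777 and 1139 counts. All mTOR-/- libraries were below all WT libraries, and mTOR-/- replicate 1 was the lowest of the 6. Normalized levels were 27.2 ± 9.09 CPM in the mTOR-/- group and 71.1 ± 15.6 CPM in the WT group (SD, n = 3 each), which is 2.61-fold lower. The log2 fold change was -1.39 with a 95% interval of -1.97 to -0.80 (SE 0.26, adjusted p = 0.0207, edgeR). Without mTOR-/- replicate 3 the log2 fold change was -1.58 (adjusted p = 0.0215, edgeR). The call was lost without WT replicate 1, at a log2 fold change of -1.31 (adjusted p = 0.0853, edgeR), and without WT replicate 3, at -1.28 (adjusted p = 0.0926, edgeR). In RNA from whole samples, fewer cells that carry a transcript and less of it per cell cannot be told apart.

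Srgn, the serglycin gene, also fell, by less. Srgn (ENSMUSG00000020077, chromosome 10, 62493833 to 62527451, reverse strand) was counted 6049, 6692 and 6424 times in mTOR-/- M-MDSCs. Its WT libraries had 10811, 11693 and 12205 counts, so the groups were well apart. Levels were 500 ± 14.1 CPM in the mTOR-/- group and 812 ± 51.7 CPM in the WT group (SD, n = 3 each). The log2 fold change was -0.70 with a 95% interval of -0.90 to -0.49 (SE 0.09, adjusted p = 0.00384, edgeR), a fold of 1.62 that is under the study's limit of 2, so Srgn was not a DEG. With the adjusted p alone, 2 of the 6 genes passed, both lower, where 4.04% of all tested genes passed and 1.87% were lower. Ctsg and Srgn were also the 2 genes whose groups did not overlap and lay lower in mTOR-/- M-MDSCs, a pattern held by 13.9% of all tested genes (28.4% in both directions). Srgn kept its adjusted p under 0.05 in each fit that left out 1 library, with log2 fold changes from -0.75 to -0.65, and stood at -0.69 without mTOR-/- replicate 3 (adjusted p = 0.00475, edgeR). The 2 RefSeq starts of Srgn, 19688 bases apart, were not counted separately.

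**Figure D1:**
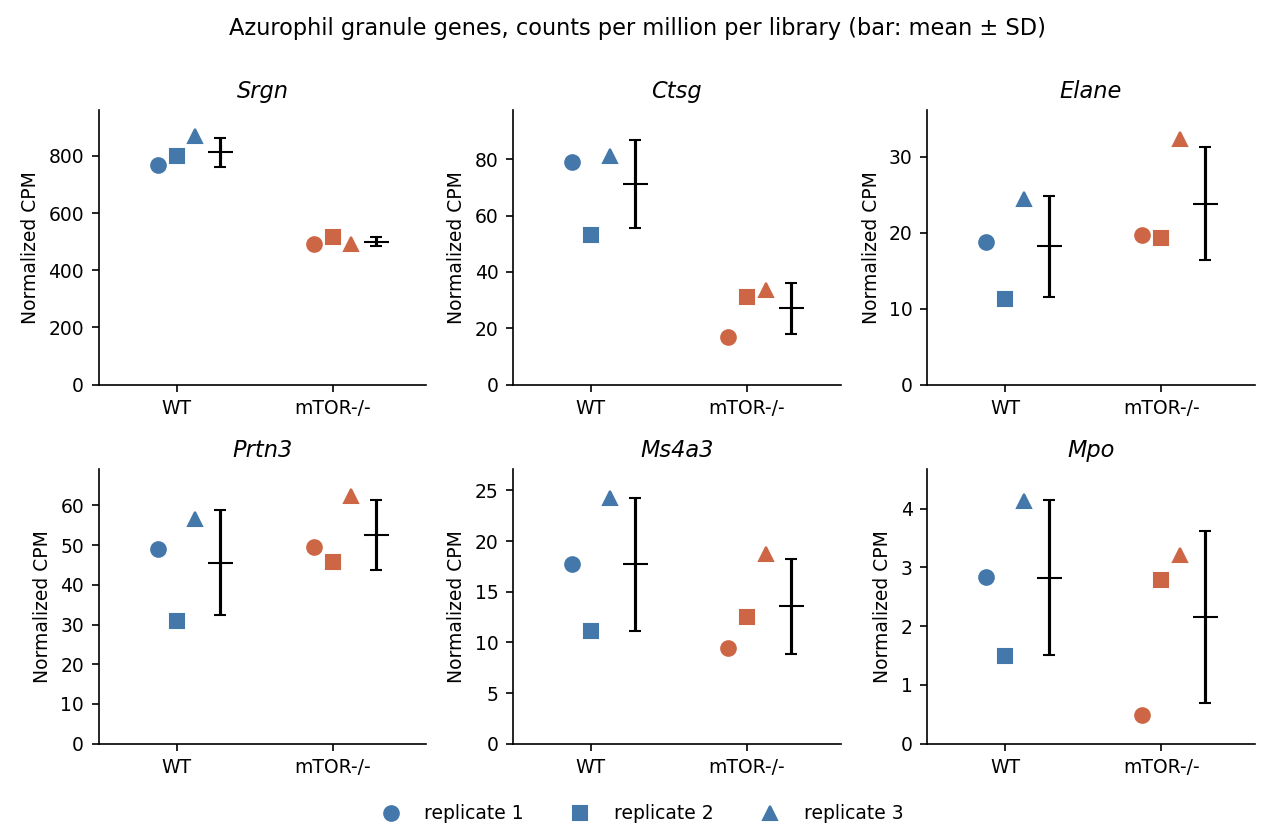
Normalized CPM of the 6 azurophil granule genes in each library (y axis, from 0), with WT in blue and mTOR-/- in orange, symbols for the replicates and black bars for the mean ± SD of 3 libraries. The groups lie apart for Srgn (768 to 869 CPM against 491 to 517 CPM) and Ctsg (53.1 to 81.1 CPM against 16.8 to 33.7 CPM) and overlap for the other 4 genes.

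Elane and Prtn3, neighbours on chromosome 10, did not pass the test and their values lay slightly on the other side. Elane (ENSMUSG00000020125, 79886312 to 79888216, forward strand) encodes the elastase that degrades bacterial proteins and matrix. It had 242, 250 and 423 counts in mTOR-/- M-MDSCs against 265, 166 and 344 in WT M-MDSCs. The ranges overlapped, with mTOR-/- replicate 3 the highest and WT replicate 2 the lowest. Its log2 fold change was 0.39 with a 95% interval of -0.28 to 1.05 (SE 0.30, adjusted p = 0.489, edgeR). Prtn3 (ENSMUSG00000057729, 79874476 to 79883174, forward strand) encodes a close relative of elastase. It had 609, 592 and 816 counts in mTOR-/- M-MDSCs against 690, 452 and 796 in WT M-MDSCs, with the same highest and lowest library. The log2 fold change was 0.21 with a 95% interval of -0.28 to 0.69 (SE 0.22, adjusted p = 0.620, edgeR), and it was -0.01 without WT replicate 2. Both intervals leave out a decrease as large as that of Ctsg. Without mTOR-/- replicate 3 the log2 fold changes of Elane and Prtn3 were 0.09 and 0.06. The deposited Prtn3 gene begins 5191 bases before its RefSeq start and shares 159 bases with Plppr3 on the opposite strand. Plppr3 was a DEG in the other direction, with 309, 400 and 581 counts in mTOR-/- M-MDSCs against 276, 176 and 204 in WT M-MDSCs (log2 fold change 1.12, adjusted p = 0.0393, edgeR), a call that held without mTOR-/- replicate 1 and was lost when any 1 of the other libraries was left out. The strand setting of the counting is not given in the sources used here, and the part of Plppr3 reads in the Prtn3 counts was not tested.

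Ms4a3 and Mpo also did not pass the test. Ms4a3 (ENSMUSG00000024681, chromosome 19, 11629496 to 11640851, reverse strand) was counted 116, 162 and 244 times in mTOR-/- M-MDSCs. It had 249, 163 and 341 counts in the WT libraries, overlapping the other group. Its log2 fold change was -0.38 with a 95% interval of -1.10 to 0.33 (SE 0.32, adjusted p = 0.523, edgeR) and -0.69 without mTOR-/- replicate 3 (adjusted p = 0.286, edgeR). Mpo (ENSMUSG00000009350, chromosome 11, 87793581 to 87804413, forward strand), the gene most often used to define these granules, was the lowest of the 6. Its counts were 6, 36 and 42 in mTOR-/- M-MDSCs against 40, 22 and 58 in WT M-MDSCs. The count of 6 in mTOR-/- replicate 1 stood far below the others. The log2 fold change was -0.38 with a 95% interval of -1.85 to 1.09 (SE 0.65, adjusted p = 0.786, edgeR), too wide at this depth to show or leave out a change the size of that of Ctsg. Without mTOR-/- replicate 1 it turned to 0.08, and without mTOR-/- replicate 3 it was -0.78. An antisense gene within Mpo, Gm11505, had 0 counts in every library.

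Levels can be compared between genes only per length, for which the deposited FPKM values (counts divided by gene length and library total) were used. In the WT group the order was Srgn at 207 ± 11.7 FPKM, Ctsg at 70.4 ± 15.5, Elane at 19.6 ± 7.05, Prtn3 at 15.3 ± 4.42, Ms4a3 at 6.46 ± 2.37 and Mpo at 0.582 ± 0.268 FPKM (SD, n = 3 each). In the mTOR-/- group it was Srgn at 129 ± 4.04 FPKM, Ctsg at 27.3 ± 9.32, Elane at 26.0 ± 8.30, Prtn3 at 17.9 ± 3.07, Ms4a3 at 5.02 ± 1.78 and Mpo at 0.453 ± 0.308 FPKM (SD, n = 3 each). Ctsg stood clear of Elane in every WT library, whereas in the mTOR-/- group the FPKM ranges of Ctsg, 16.7 to 34.1, and Elane, 21.2 to 35.6, overlapped. Elane and Prtn3 also overlapped in both groups. The lengths behind the FPKM of Mpo and Prtn3, 4815 and 2960 bases, are longer than the 3424 and 1732 bases of exon that GENCODE M21 gives them. On GENCODE lengths, tried after the data had been seen, Prtn3 stood above Elane in the group means, at 26.1 ± 7.55 and 18.4 ± 6.59 on the FPKM scale in the WT group (SD, n = 3 each). Mpo was still the lowest, at 0.818 ± 0.377 in the WT group (SD, n = 3). Among the tested genes Srgn ranked at percentile 98.7 by mean FPKM in the WT group, Ctsg at 95.4 and Mpo at 11.4. In the mTOR-/- group Ctsg ranked at percentile 86.1. The 6 genes together took 0.0899% to 0.104% of all counts in the WT libraries and 0.0587% to 0.0650% in the mTOR-/- libraries, and 76.6% to 88.1% of those counts were Srgn.

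**Figure D2:**
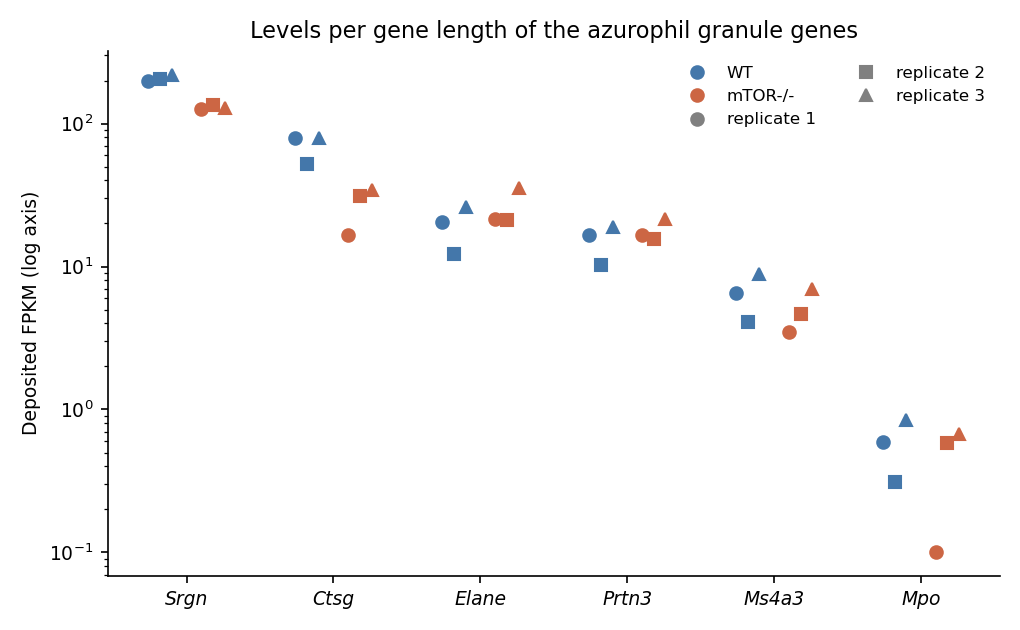
Deposited FPKM (y axis, log scale) of the 6 genes in each library, WT in blue and mTOR-/- in orange, with a symbol for each replicate number. The levels run from Srgn at 126 to 220 FPKM down to Mpo at 0.101 to 0.845 FPKM, and Ctsg falls to the level of Elane in the mTOR-/- libraries.

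The genes other than Srgn shared the highest and lowest WT library and the highest mTOR-/- library, but not the lowest mTOR-/- library. In the WT group replicate 2 was the lowest and replicate 3 the highest for 5 of the 6 genes, all but Srgn, and replicate 3 was also the highest for Srgn. In the mTOR-/- group replicate 3 was the highest for the same 5 genes, and the lowest was replicate 1 for Mpo, Ctsg and Ms4a3 and replicate 2 for Elane and Prtn3. The span was wide for these 5, from 1.53-fold (Ctsg) to 2.75-fold (Mpo) between the highest and lowest WT library, and 1.13-fold for Srgn. The SD of log2 CPM among WT libraries was 0.343 for Ctsg, 0.456 for Prtn3, 0.560 for Elane and 0.561 for Ms4a3. The median SD over all tested genes was 0.148, and Srgn lay below it at 0.0910.

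Ratios of genes within a library do not depend on how libraries are scaled, and they were compared for all 15 pairs after the values had been seen. Elane had 1.17, 0.623 and 0.959 counts per Ctsg count in the mTOR-/- libraries. The ratio was 0.238, 0.214 and 0.302 in the WT libraries, so it was higher in each mTOR-/- library than in any WT library. The ratio of Prtn3 to Ctsg likewise lay at 1.48 to 2.96 in mTOR-/- M-MDSCs against 0.582 to 0.699 in WT M-MDSCs. Elane and Ms4a3 were counted almost equally in the WT libraries, at 1.01 to 1.06 Elane counts per Ms4a3 count, and at 1.54 to 2.09 in the mTOR-/- libraries. The pair of neighbours kept closer together, with 0.397 to 0.518 Elane counts per Prtn3 count in the mTOR-/- libraries and 0.367 to 0.432 in the WT libraries, which overlap. The ratio of Ctsg to Srgn overlapped too, at 0.0341 to 0.0686 against 0.0665 to 0.103. In all, 7 of 15 ratios did not overlap between the groups, each with p = 0.1 in a two-sided exact permutation test, the smallest p that 3 libraries against 3 allow (Benjamini-Hochberg adjusted p = 0.214). No pair could therefore pass the threshold. The pairs share genes and are not independent: of the 7, 3 hold Ctsg and 2 hold Srgn. Among single tested genes, the groups did not overlap for 28.4%. The share among pairs of all genes was not computed, so the 7 of 15 is a description only.

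**Figure D3:**
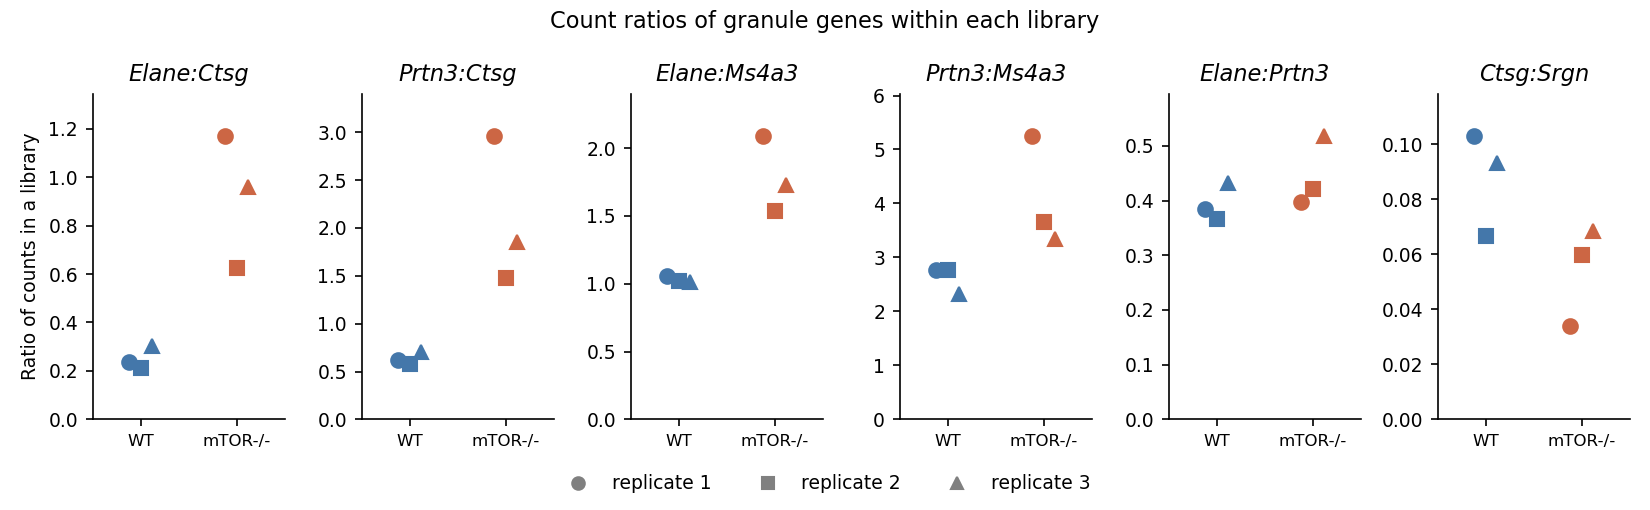
Counts of one gene per count of another in the same library (y axes, linear and from 0) for 6 of the 15 pairs, WT in blue and mTOR-/- in orange, with a symbol for each replicate number. Elane and Prtn3 relative to Ctsg or Ms4a3 are higher in each mTOR-/- library than in any WT library, while Elane:Prtn3 and Ctsg:Srgn overlap.

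The genes whose profile over the 6 libraries was most like each of the 5 better-counted genes were found by the root mean square difference of log2 CPM, each gene centred on its own mean, among 10620 other genes with a mean of at least 50 counts. Closest to Ctsg were Epx, eosinophil peroxidase, at a difference of 0.175, Mbnl3, a splicing regulator, at 0.193 and Spry4, an inhibitor of receptor tyrosine kinase signalling, at 0.234. Epx had 17, 40 and 53 counts in mTOR-/- M-MDSCs against 122, 67 and 104 in WT M-MDSCs, without passing the test (adjusted p = 0.135, edgeR). Closest to Srgn were Napsa, an aspartic protease, at 0.055, Ubac2 at 0.062 and Cdk18, a cyclin-dependent kinase, at 0.065, which fell with log2 fold changes of -0.66, -0.60 and -0.66 (adjusted p = 0.00683, 0.0111 and 0.00411, edgeR). Closest to Elane were Zfp202 at 0.067, Sepsecs at 0.144 and Carf at 0.148, with Prtn3 next at 0.158. Ctsg was 0.964 away from Elane and 0.884 from Prtn3. For Prtn3 the closest were Bcl7a at 0.083, Ccdc107 at 0.095 and Zfp202 at 0.105, and for Ms4a3 they were Snx10 at 0.140, Trmt10b at 0.175 and H2afv at 0.180. These are descriptions over 6 libraries, in which within-group and between-group differences both count. The genes closest to Srgn were therefore bound to fall about as it did, and their adjusted p are no separate evidence.

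Of 15 other proteins of azurophil granules, 13 were tested, and Bpi and Cfd had 0 counts in every library. Lyz2, which encodes lysozyme and carries the Cre in Lyz-Cre mice, was the only DEG, lower at 1020 ± 153 CPM against 3280 ± 840 CPM (SD, n = 3 each; log2 fold change -1.68, adjusted p = 0.00255, edgeR). No Cre is named for the WT mice, so for Lyz2 the Cre allele and the loss of mTOR cannot be told apart. Cd63, a granule membrane tetraspanin, and Ctsb, a lysosomal cysteine protease, also fell, with log2 fold changes of -0.47 and -0.68 (adjusted p = 0.0241 and 0.0183, edgeR). Naaa, a lysosomal amidase, rose with a log2 fold change of 0.70 (adjusted p = 0.00692, edgeR). Cd63 and Ctsb did not pass when any 1 WT replicate was left out, while Lyz2 and Naaa passed in all 6 fits that left out a library. The other 9 did not pass, among them Prss57, a serine protease related to elastase, which had 54, 41 and 99 counts in mTOR-/- M-MDSCs against 154, 98 and 131 in WT M-MDSCs (adjusted p = 0.214, edgeR). The highest of them was Ctsd, at 4950 ± 881 CPM against 6820 ± 320 CPM (SD, n = 3 each, adjusted p = 0.125, edgeR). The median log2 fold change of the 13 was -0.29, where that of all tested genes was 0.00 and that of the 6 genes themselves -0.38.

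Of 12 genes for the processing and sorting of granule proteases and myeloperoxidase, 1 passed the test. It was Cst7, which encodes cystatin F, an inhibitor of cathepsin C rather than a processing enzyme, and which had 429, 519 and 340 counts in mTOR-/- M-MDSCs against 1102, 1001 and 1018 in WT M-MDSCs. Its log2 fold change was -1.12 with an SE of 0.16 (adjusted p = 0.00642, edgeR). Without mTOR-/- replicate 3 it was -0.97 (adjusted p = 0.00512, edgeR), so Cst7 still fell but was no longer a DEG. Ctsc, the protease that activates the 3 granule proteases, was at 204 ± 23.5 CPM in the mTOR-/- group and 182 ± 24.9 CPM in the WT group (SD, n = 3 each, adjusted p = 0.492, edgeR). The myeloperoxidase chaperones Calr and Canx had log2 fold changes of -0.18 and -0.19 (adjusted p = 0.367 and 0.315, edgeR). The median of the 12 was 0.00.

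**Figure D4:**
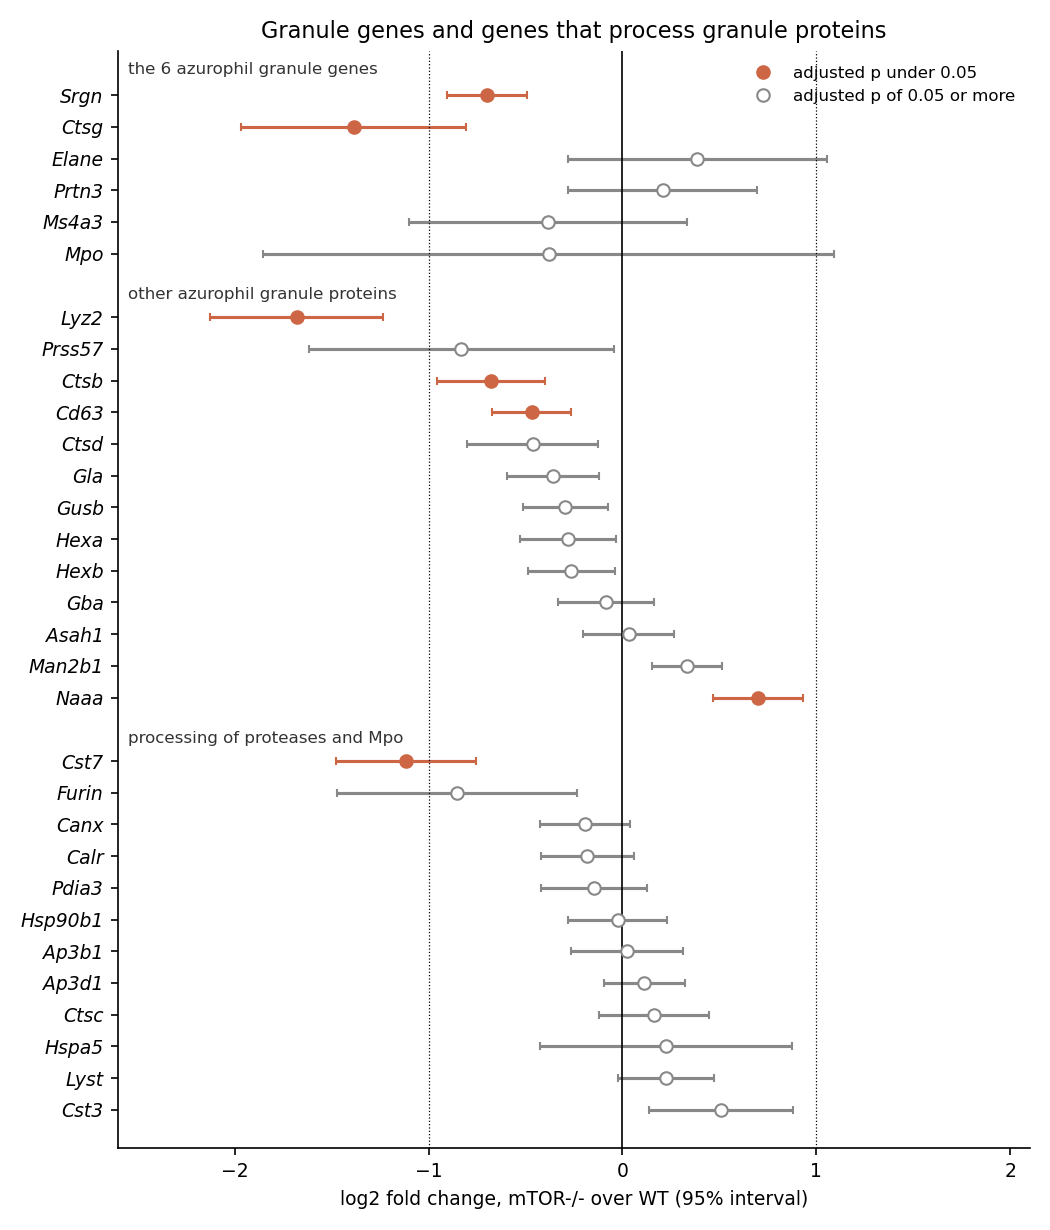
Log2 fold changes, mTOR-/- over WT (x axis), with 95% intervals from edgeR's quasi-likelihood fit, of the 6 azurophil granule genes, 13 other azurophil granule proteins and 12 genes that process granule proteins, with filled orange points for an adjusted p under 0.05 and dotted lines at a fold change of 2. Ctsg at -1.39, Lyz2 (the gene that carries the Cre) at -1.68 and Cst7 at -1.12 are past the dotted line, and Elane and Prtn3 lie on the other side of 0.

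Among 10 tested protease inhibitors, Serpina3g, an intracellular serpin, fell (log2 fold change -1.32, adjusted p = 0.00484, edgeR) and Stfa3, a stefin that blocks cysteine proteases, rose (1.06, adjusted p = 0.0132, edgeR). Stfa3 lost its call without WT replicate 2, WT replicate 3 or mTOR-/- replicate 1 (adjusted p = 0.0595, 0.0608 and 0.0539, edgeR), and Serpina3g kept it in every such fit. The inhibitor genes Serpinb1a and Slpi did not pass the test. Serpinb1a was at 331 ± 27.2 CPM in the mTOR-/- group and 364 ± 7.30 CPM in the WT group, and Slpi at 537 ± 109 CPM and 753 ± 83.3 CPM (SD, n = 3 each; adjusted p = 0.422 and 0.117, edgeR). The median of this list was -0.09. Of 14 tested enzymes for the chondroitin sulfate chains that serglycin carries, 0 were DEGs in the edgeR test, 6 had an unadjusted p under 0.05 and 1 had an adjusted p under 0.05. That gene was Xylt1, which adds the first sugar of the chain, at 12.6 ± 0.712 CPM in the mTOR-/- group and 23.3 ± 5.62 CPM in the WT group (SD, n = 3 each; log2 fold change -0.89, adjusted p = 0.0416, edgeR). Xylt1 kept an adjusted p under 0.05 in only 1 of the 6 fits that left out a library, the one without WT replicate 2, in which it was also a DEG (log2 fold change -1.06, adjusted p = 0.0357, edgeR). EdgeR's exact test and DESeq2 each called 1 other enzyme, the sulfotransferase gene Chst13, with 36, 86 and 50 counts in mTOR-/- M-MDSCs against 174, 113 and 156 in WT M-MDSCs (log2 fold change -1.22, adjusted p = 0.0828 in the quasi-likelihood test of edgeR). The share of all tested genes with an unadjusted p under 0.05 is not given here, so the 6 enzymes are a description only. The median of these enzymes was -0.27, and in 9 of the 14 all mTOR-/- libraries were below all WT libraries. That pattern was held by 13.9% of all tested genes. It was also seen in 8 of the 13 other tested azurophil granule proteins, with 2 the other way.

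The 14 listed transcription factors include regulators of granule genes, but not all are known to control them. Of these 14, 0 were DEGs in the edgeR test, its exact test or DESeq2, and 6 had an unadjusted p under 0.05. No share of all tested genes is given beside that count, which is a description only. Egr1, an immediate early factor that favours the monocyte fate, rose with a log2 fold change of 0.78 (adjusted p = 0.00651, edgeR). Without WT replicate 3 Egr1 did not pass. Cebpe, needed for late granule genes, was at 43.5 ± 4.38 CPM in the mTOR-/- group and 61.4 ± 11.6 CPM in the WT group (SD, n = 3 each, adjusted p = 0.119, edgeR). Gfi1, which represses monocyte genes in granulocyte precursors, was at 92.4 ± 12.4 and 70.5 ± 12.3 CPM (SD, n = 3 each, adjusted p = 0.183, edgeR). Spi1, which encodes PU.1, and Myb had log2 fold changes of -0.06 and 0.01, with adjusted p = 0.773 and 0.987 (edgeR). The median of the 14 was -0.08. Of 13 tested progenitor genes, Kit and Ly6a were lower DEGs (log2 fold changes -1.05 and -1.42, adjusted p = 0.00139 and 0.00720, edgeR), and Csf3r, the G-CSF receptor, rose (0.63, adjusted p = 0.0314, edgeR). Csf3r did not pass when any 1 WT replicate was left out, and Kit was at -0.98 and no longer a DEG without mTOR-/- replicate 2 (adjusted p = 0.00497, edgeR). Cd34 did not pass, at 34.2 ± 3.83 CPM against 31.6 ± 3.58 CPM (SD, n = 3 each, adjusted p = 0.707, edgeR). The median of the progenitor genes was 0.03.

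Cathepsin G and serglycin are also made by mast cells and basophils, and some markers of those cells were lower where Ctsg was. Of 8 tested mast cell and basophil genes, 3 were DEGs, all lower, and 4 had an adjusted p under 0.05, with a list median of -0.94. Cpa3, mast cell carboxypeptidase, had 1360, 1804 and 2009 counts in mTOR-/- M-MDSCs against 9565, 9250 and 10799 in WT M-MDSCs. Its log2 fold change was -2.37 with an SE of 0.14 (adjusted p = 9.53e-05, edgeR). The histamine-forming enzyme Hdc and the basophil protease Mcpt8 had log2 fold changes of -1.33 and -1.09 (adjusted p = 0.000101 and 0.0353, edgeR). Gata2 also fell (-0.79, adjusted p = 0.00973, edgeR). Prss34, Ms4a2 and Tpsb2 did not pass (adjusted p = 0.234, 0.457 and 0.207, edgeR), nor did Fcer1a, the IgE receptor alpha chain gene, whose log2 fold change of 0.45 lay on the other side (adjusted p = 0.610, edgeR). Cpa3 and Hdc were DEGs in all 6 fits that left out a library, and Mcpt8 was one only without WT replicate 2 or mTOR-/- replicate 2. Gata2 did not pass without WT replicate 1 or 2. The sum of all 10 listed genes was 467 to 568 CPM across mTOR-/- libraries against 1390 to 1470 CPM across WT libraries, and the connective tissue mast cell proteases Cma1 and Mcpt4 had 0 counts in every library. Eosinophil genes summed to 58.5 to 83.6 CPM and 115 to 136 CPM, with Prg2, a granule protein, the only DEG of 6 tested (log2 fold change -1.09, adjusted p = 0.00899, edgeR). Without mTOR-/- replicate 2, Prg2 was at -0.97 and no longer a DEG (adjusted p = 0.0219, edgeR). Prg2 alone was at 42.0 CPM in the mTOR-/- group and 89.5 CPM in the WT group. Epx, Prg3, Siglecf, Ear6 and Ccr3 did not pass (log2 fold changes -1.27, -0.78, -0.13, 0.07 and 0.08, adjusted p = 0.135, 0.146, 0.902, 0.917 and 0.965, edgeR). The part of these genes' cells in the difference of Ctsg and Srgn was not tested.

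Later granule genes divided. Of 16 secondary granule and late neutrophil genes, Ltf, Chil1 and Itgb2l were lower DEGs and Ly6g a higher one, with a list median of 0.10. Ltf, lactoferrin of the secondary granules, had 46, 47 and 76 counts in mTOR-/- M-MDSCs against 250, 253 and 271 in WT M-MDSCs (log2 fold change -2.04, adjusted p = 0.00214, edgeR). Ngp, another secondary granule protein, fell with a log2 fold change of -0.56, while S100a8 and Chil3 rose with 0.62 and 0.50 (adjusted p = 0.0343, 0.0305 and 0.0298, edgeR). Ltf was a DEG in all 6 fits that left out a library. Ly6g lost its call in 5 of these 6 fits, all but that without WT replicate 3 (adjusted p = 0.0548 to 0.127, edgeR), Itgb2l in all 6, and Chil1 without WT replicate 1, WT replicate 3 or mTOR-/- replicate 1. Ngp, S100a8 and Chil3 each lost their adjusted p under 0.05 in at least 4 of the 6 fits. The sum of this list was 4470 to 4870 CPM across mTOR-/- libraries against 3870 to 4200 CPM across WT libraries. Of 11 tested monocyte genes, the higher DEGs included F13a1 and Fn1 (log2 fold changes 1.12 and 1.36, adjusted p = 0.0223 and 0.00342, edgeR), with a list median of 0.65. With the adjusted p alone 6 rose and 1, Ly6c2, fell. Fn1 was a DEG in all 6 fits that left out a library, whereas F13a1 lost its call when any 1 WT replicate or mTOR-/- replicate 1 was left out, and Ly6c2 did not pass without WT replicate 1 or 3 or mTOR-/- replicate 1 or 2. Of 7 tested dendritic cell genes, Ccr7, H2-Aa, H2-Ab1 and Cd74 were higher DEGs, with a median of 1.18 and sums of 940 to 1070 CPM against 226 to 487 CPM. Their number fell to 1 without WT replicate 2 or mTOR-/- replicate 1, to 2 without WT replicate 1, WT replicate 3 or mTOR-/- replicate 2 and to 3 without mTOR-/- replicate 3, and H2-Ab1 was a DEG in every such fit. Itgax, Zbtb46 and Clec9a did not pass (log2 fold changes 0.92, 0.81 and -0.39, adjusted p = 0.0987, 0.44 and 0.77, edgeR). Xcr1, Siglech and Cd209a were below the filter on low counts. The 5 tested macrophage genes (median 0.04) and the 3 tested lymphoid genes (median 0.57) held 0 DEGs in the edgeR test, its exact test or DESeq2, with an unadjusted p under 0.05 in 2 and 0 genes. The 5 tested erythroid and megakaryocyte genes (median -0.79) held 0 DEGs in the edgeR test, 2 in its exact test and 2 in DESeq2, with an unadjusted p under 0.05 in 3. Both of these tools called Hbb-bs and Hbb-bt, beta globin genes with only 3 to 74 counts in a library. Pf4 and Ppbp did not pass (log2 fold changes -0.14 and 0.24, adjusted p = 0.62 and 0.608, edgeR). The list's sums overlapped, at 514 to 631 CPM across mTOR-/- libraries against 402 to 670 CPM across WT libraries. Itga2b had an adjusted p of 0.0314 (log2 fold change -0.79, edgeR), and without mTOR-/- replicate 3 it was at -1.02 and a DEG (adjusted p = 0.00232, edgeR), while it did not pass when any 1 of the other libraries was left out. Among 16 cell cycle genes 0 were DEGs in the edgeR test, its exact test or DESeq2 and 6 had an unadjusted p under 0.05. Of these, Cdk1 and Rrm2 had an adjusted p under 0.05 (log2 fold changes -0.72 and -0.62, adjusted p = 0.0259 and 0.0483, edgeR), and the median of the 16 was -0.18. Cdk1 passed only without WT replicate 2 or mTOR-/- replicate 3, and Rrm2 only without mTOR-/- replicate 3. For the unadjusted p of these lists no share of all tested genes is given, so the counts are descriptions only. The part of these cell types in the values of the azurophil granule genes was not tested.

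**Figure D5:**
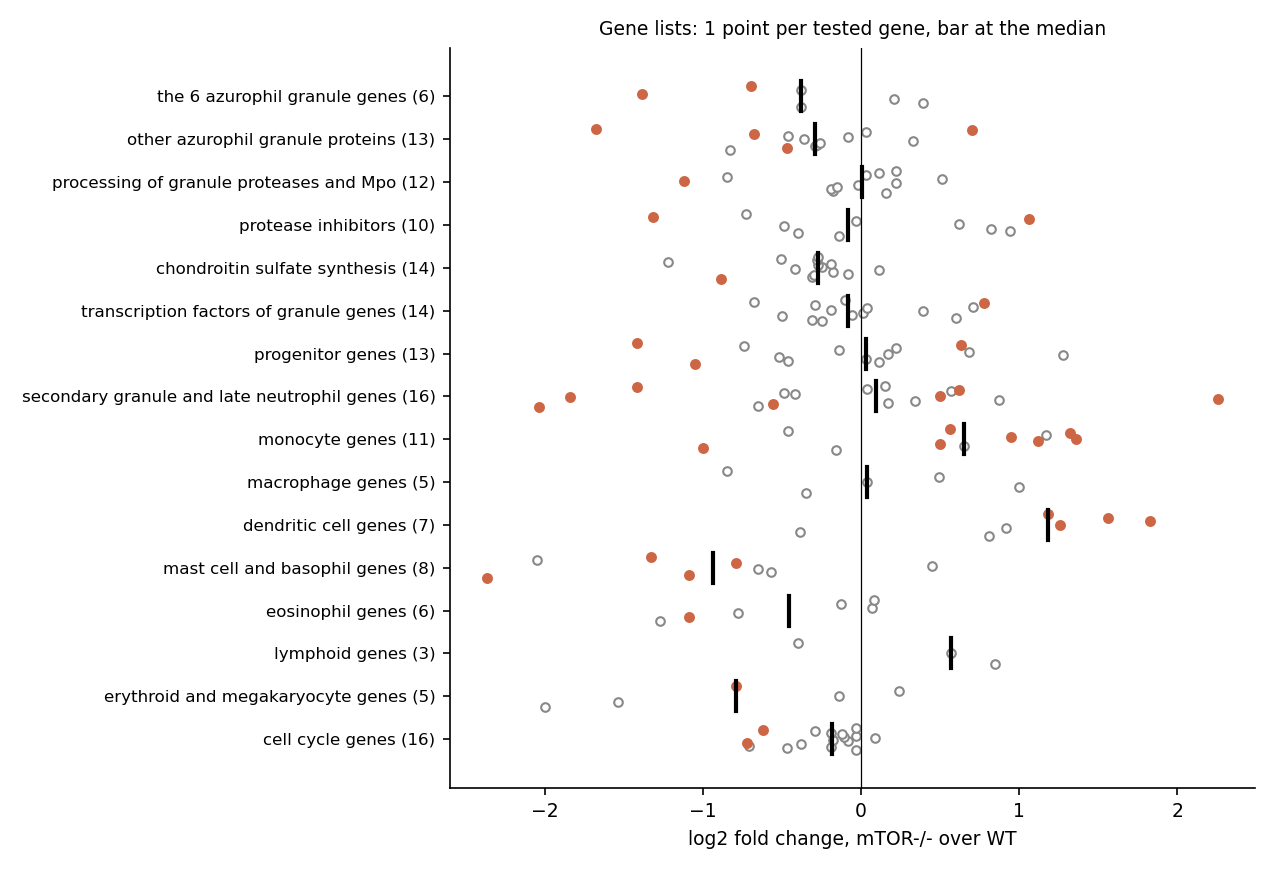
Log2 fold change, mTOR-/- over WT (x axis), of every tested gene of each list, with the number tested in brackets, filled orange points for an adjusted p under 0.05 (edgeR) and a black bar at the list's median. The medians run from -0.94 for mast cell and basophil genes to 1.18 for dendritic cell genes, and the 6 azurophil granule genes spread from -1.39 to 0.39.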

How the data were processed

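RNA of M-MDSCs was sequenced from WT and Lyz-mTOR mice, 3 libraries each, grouped by the sample titles. The authors deposited raw counts per gene and FPKM. Their text names Bowtie2, HTSeq and mm10, and the submitters' processing notes list HISAT2 2.0.4, StringTie 1.3.0 and also mm9. The annotation release and strand setting are not given in the sources used here. In all 7417 genes with over 200 counts in every library, the deposited FPKM equalled counts divided by the library total and by a gene length that varied by under 0.1% between libraries, and other genes were not checked. Comparisons that the authors deposited (fold changes and p-values) and 24 repeated per-sample columns were not used.

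Counts were tested with edgeR 4.0.16 in R 4.3.3: filterByExpr (minimum count 10, minimum total 15), TMM factors of 0.986 to 1.01, the quasi-likelihood F test and Benjamini-Hochberg adjustment over 12537 genes. Genes with a fold change of at least 2 whose adjusted p was under 0.05 were DEGs. Standard errors were the log2 fold change over the square root of F. The script was tested on simulated data. Log2 CPM used a prior count of 2. Summed CPM of a list use library totals. Promoter windows came from RefSeq (GRCm38.p6), which matched all 6 genes, and exons from GENCODE M21, in which 5 of the 6 had the deposited coordinates. The motif letters were chosen by hand. Named genes were the 6, Mtor, list genes that passed, up to 3 abundant others per list, chromosomal neighbours and the 3 most similar genes. Chst13, Prss34, Tpsb2, Fcer1a, Xcr1, Siglech, Cd209a, Ccr3 and the globin genes were named after their values were seen. One list gene is not reported here. Genes and lists were chosen with earlier results of these data known. DESeq2 1.42.0, edgeR's exact test, other scalings and filters, left-out libraries and a replicate block were alternatives.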

Additional observations from a re-analysis of the deposited data

How the results depend on the processing

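The log2 fold changes of Ctsg, Srgn, Elane and Ms4a3 kept their direction under every alternative run. The directions of Mpo and Prtn3, which did not pass the test, turned when 1 library was left out. With each library left out in turn, Ctsg lay between -1.58 and -1.14 (the call was lost without WT replicate 1 or 3), Mpo between -0.78 and 0.08 and Prtn3 between -0.01 and 0.39, on the log2 scale. The number of the 6 genes that were DEGs was 0 or 1 in these fits, and 2 with no fold change threshold. Over all genes, DEGs numbered 212, from 114 to 229 with a library left out (128, 114 and 120 without WT replicates 1, 2 and 3), 386 with edgeR's exact test, 348 with DESeq2's Wald test and 507 with no fold change threshold. The cause of the higher numbers with the other tests was not tested. With the replicate number as a block, 164 genes were DEGs, the call of Ctsg held (-1.41, adjusted p = 0.0249, edgeR) and no other call on the 6 genes changed, but Plppr3, Mcpt8, Chil1 and Itgb2l were no longer DEGs (adjusted p = 0.0609, 0.0613, 0.0557 and 0.120, edgeR). The numbers do not pair the libraries: deviations from the group means correlated at -0.0764, -0.0252 and -0.0608 between libraries with the same number, across genes. Mpo was not tested under the stricter filter (a minimum of 10 counts per library), because 1 library had 6. With 3 libraries per group and these counts, the depth limits Mpo most.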

Other observations

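The 2 protein-coding genes on each side of each azurophil granule gene were listed from GENCODE M21, with no explanation attached to them. Next to Ctsg on chromosome 14 lies Mcpt8, a basophil protease 14607 bases away, which was lower in mTOR-/- M-MDSCs like Ctsg, at 165, 293 and 214 counts against 523, 416 and 650. The other genes listed around Ctsg, Mcpt4, Gzme and Gzmd, had 0 counts in every library. Around Elane and Prtn3, Cfd had 0 counts in every library. Med16 and Ptbp1 did not pass the test (log2 fold changes 0.06 and 0.15, adjusted p = 0.910 and 0.700, edgeR), and Plppr3 was higher. Next to Mpo, Lpo, the lactoperoxidase gene, had 0 counts in every library, and Tspoap1, Supt4a and Mks1 did not pass (adjusted p = 0.194, 0.372 and 0.557, edgeR). Beside Srgn, Vps26a, Kif1bp and Ddx21 did not pass (log2 fold changes -0.44, 0.04 and -0.09, adjusted p = 0.440, 0.914 and 0.601, edgeR), and 4930507D05Rik had at most 3 counts. Ms4a2, the IgE receptor beta chain gene beside Ms4a3, had 89, 52 and 188 counts in mTOR-/- M-MDSCs against 100, 209 and 264 in WT M-MDSCs, and Ms4a6d on its far side did not pass (adjusted p = 0.457 and 0.568, edgeR). Oosp2 and Oosp1 beyond Ms4a3 were below the filter on low counts.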
